A study of Homo sapiens with 6 samples.

Results

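The ZFP36, BTG, TOB and TENT5 genes encode regulators of how long mRNAs last and how long their poly(A) tails are. They were followed in MDA-MB-231 cells, an established cell line from a human triple-negative breast cancer, mesenchymal in character. Each of the 10 genes ZFP36, ZFP36L1, ZFP36L2, BTG1, BTG2, BTG3, TOB1, TOB2, TENT5A and TENT5C was looked up by its exact symbol in the platform's annotation. The lookup gave 27 probe sets of 49293 that are not array controls, and these measured 9 of the 18132 genes. BTG2 was not analysed here. Expression was measured on 6 Affymetrix PrimeView arrays, with 3 arrays per group. In the first group the cells had received SAHA at 5 µM for 8 h. SAHA, or vorinostat, blocks the zinc-dependent histone deacetylases. In the other the cells had received DMSO, the solvent, for 8 h. The question addressed is which of these regulators differ after 8 h of deacetylase inhibition. Nothing in the labels says that the replicates were separate cultures, so errors and p-values may reflect technical spread among these 6 samples alone. All values are from 1 cell line, and more cells expressing a gene and more RNA per cell cannot be told apart.

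The length of its poly(A) tail decides much of an mRNA's fate: deadenylases shorten the tail, and the mRNA is then decapped and degraded. Proteins of the ZFP36 family (ZFP36 is also called tristetraprolin) bind AU-rich elements in the 3' untranslated regions of short-lived mRNAs, many of them for cytokines and growth regulators, and recruit the CCR4-NOT deadenylase complex. BTG and TOB proteins share a domain that binds the CCR4-NOT nucleases CNOT7 and CNOT8, and they restrain proliferation in many cells. TENT5 proteins act the other way. They are poly(A) polymerases of the cytoplasm that lengthen the tails of selected mRNAs, and TENT5C is a tumour suppressor in multiple myeloma.

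Promoter sequences, from RefSeq on GRCh38.p14, were found for 8 of the 9 measured genes. The 250 bases before the start of 6 of them are printed 5′ to 3′ on the strand of the gene, because 4 of the 5 genes that were higher with SAHA share an element there, and the last 2, which were lower, are shown for contrast. Capitals mark the GC box (GGGCGG, bound by SP and KLF factors) and the TATA element (TATAA), each on either strand. TENT5C (chr1:117605798-117606047, plus strand), ZFP36 (chr19:39406597-39406846, plus strand), TENT5A (chr6:81752682-81752931, minus strand) and BTG1 (chr12:92145847-92146096, minus strand) come first, followed by BTG3 (chr21:17612902-17613151, minus strand) and TOB2 (chr22:41446802-41447051, minus strand).
TENT5C: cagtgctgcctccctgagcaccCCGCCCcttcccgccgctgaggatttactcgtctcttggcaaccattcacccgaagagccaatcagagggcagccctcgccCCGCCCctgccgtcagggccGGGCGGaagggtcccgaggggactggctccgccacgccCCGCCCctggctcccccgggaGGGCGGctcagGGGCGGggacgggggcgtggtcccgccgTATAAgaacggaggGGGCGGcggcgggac
ZFP36: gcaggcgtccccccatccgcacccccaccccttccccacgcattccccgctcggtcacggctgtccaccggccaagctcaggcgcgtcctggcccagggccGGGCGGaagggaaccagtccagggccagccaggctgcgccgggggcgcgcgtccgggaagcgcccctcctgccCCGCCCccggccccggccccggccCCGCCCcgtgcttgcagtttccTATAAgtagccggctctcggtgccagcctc
TENT5A: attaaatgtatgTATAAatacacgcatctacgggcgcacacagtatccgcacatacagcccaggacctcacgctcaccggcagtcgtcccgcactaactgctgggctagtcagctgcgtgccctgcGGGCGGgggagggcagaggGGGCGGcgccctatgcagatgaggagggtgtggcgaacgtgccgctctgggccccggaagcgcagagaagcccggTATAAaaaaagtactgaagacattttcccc
BTG1: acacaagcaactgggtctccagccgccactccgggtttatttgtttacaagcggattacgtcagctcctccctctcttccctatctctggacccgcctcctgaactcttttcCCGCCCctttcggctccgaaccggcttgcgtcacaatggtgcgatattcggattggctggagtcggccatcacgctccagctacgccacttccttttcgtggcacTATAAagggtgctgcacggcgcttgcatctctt
BTG3: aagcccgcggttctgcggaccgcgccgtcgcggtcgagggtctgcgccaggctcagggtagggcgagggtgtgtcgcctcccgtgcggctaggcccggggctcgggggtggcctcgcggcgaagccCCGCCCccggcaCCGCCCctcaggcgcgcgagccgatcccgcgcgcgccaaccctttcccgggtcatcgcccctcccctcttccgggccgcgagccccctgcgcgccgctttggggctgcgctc
TOB2: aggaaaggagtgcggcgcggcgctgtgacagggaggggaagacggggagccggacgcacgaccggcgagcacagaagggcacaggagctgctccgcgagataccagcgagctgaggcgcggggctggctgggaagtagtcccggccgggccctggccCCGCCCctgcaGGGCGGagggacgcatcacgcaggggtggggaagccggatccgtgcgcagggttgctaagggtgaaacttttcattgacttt

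A TATA element began 29 bases before the start in TENT5C, 30 in ZFP36, 30 in TENT5A and 33 in BTG1. TENT5A had another one 238 bases before the start. None was found in the printed windows of BTG3 and TOB2, nor in those of TOB1 and ZFP36L1, which have 2 annotated starts each. A TATA element on either strand was present in 18.9% of all 35116 promoters of this length. On the strand of the gene and beginning 25 to 35 bases before the start, it was present in 3.57% of these promoters. Counted by gene, at any of a gene's starts, it was present in 928 of the 14425 measured genes with a promoter entry. GC boxes numbered 7 in TENT5C, 3 in ZFP36, 2 in TENT5A, 1 in BTG1, 2 in BTG3 and 2 in TOB2. In windows not printed, 1 start of TOB1 held 3. The other start of TOB1 and the 2 starts of ZFP36L1 held 0. Of the 10 member promoters 7 held at least 1 GC box, as did 42.6% of all promoters. Across the array, genes with a TATA element 25 to 35 bases before the start were called higher about as often as all genes with a promoter entry. They were called lower less often. Of 928 measured genes with a TATA element in that window, 23.0% were higher and 12.1% lower with SAHA (median log2 fold change 0.02), against 25.5% higher and 24.9% lower among all 14425 measured genes with a promoter entry. This search was made after the members' values were seen. These are matches of letters, and binding was not measured.

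Other elements were looked for in the same windows. CCAAT (either strand) was found in TENT5C, BTG1, 1 of 2 starts of TOB1 and 1 of 2 starts of ZFP36L1, and in 32% of all promoters. The cyclic AMP response element TGACGTCA was found in 1 start of ZFP36L1, beginning 52 bases before it, and in 1.65% of all promoters. The AP-1 element TGANTCA was found in 0 of the 10 member promoters and in 6.57% of all.

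With SAHA, 5 of the 9 measured genes rose and 4 fell in their brightest probe set (24.6% and 23.8% of all genes did), and within 3 of the 4 families paralogs parted. ZFP36 rose while ZFP36L1 and ZFP36L2 fell, BTG1 rose while BTG3 fell, and TOB1 rose while TOB2 fell. TENT5A and TENT5C both rose. Of these calls, that of ZFP36L1 was lost in 4 processing alternatives. The calls of ZFP36, TOB1 and BTG1 rest on probe sets shared by similar transcripts. By brightest probe set TENT5C had the largest rise, at 15.1-fold against DMSO values near the background level, while its other probe sets gave 8.06-fold and 1.95-fold. BTG3 had the largest fall, at 2.01-fold. The members were proposed with this comparison known, so their differences are given as a description, with no p-value, and their counts support nothing. A probe set was called where limma's adjusted p, over all 49293 probe sets, was under 0.05. Of all probe sets 46.4% were called. By that rule 13 of the 27 member probe sets were higher (22.2% of all probe sets were), 9 were lower (24.1% of all were) and 5 were not called. In 24 of the 27 the 3 SAHA and 3 DMSO values did not overlap, as in 54.4% of all probe sets. Of the 9 genes, none overlapped in its brightest probe set, and of all genes 55.5% did not. Of the 6 genes with several probe sets, 0 had some called higher and others lower.

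**Figure D1:**
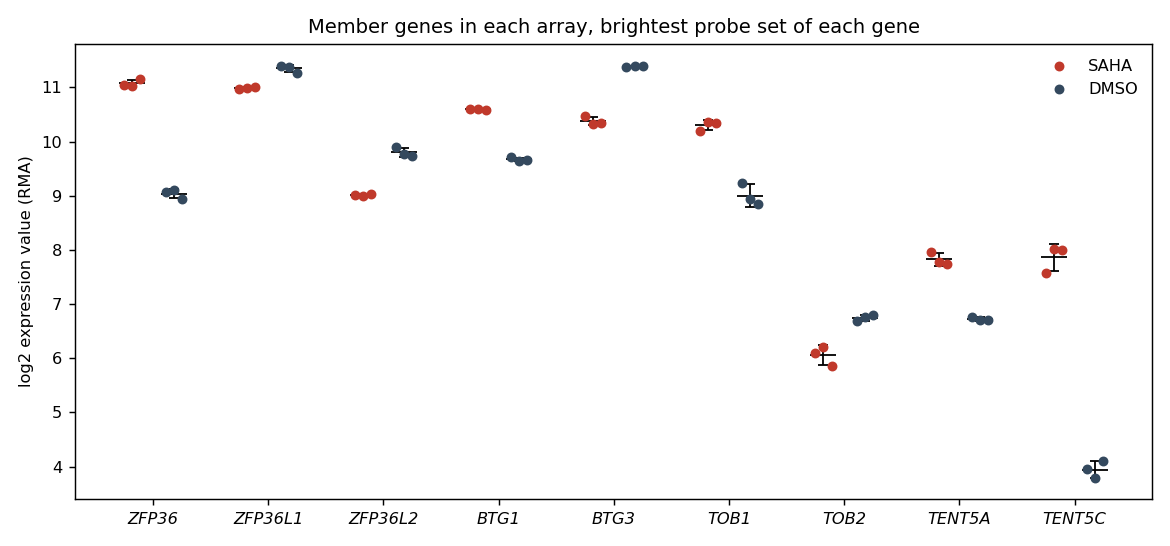
Log2 expression value (vertical axis, RMA) of each measured member gene in its brightest probe set, in 3 SAHA arrays (red, left) and 3 DMSO arrays (dark, right). Points are arrays and bars are means with SD. The groups are apart in all 9 genes, and SAHA values are above DMSO values in ZFP36, BTG1, TOB1, TENT5A and TENT5C. Heights are not comparable between genes, because each probe set has its own brightness.

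Values below are log2 expression values, log2 fold changes are SAHA minus DMSO with limma's standard error, and n is 3 arrays per group. Levels of different probe sets cannot be set against each other on these arrays, so genes are compared by their differences only. Among the RNA-binding proteins, ZFP36 was measured by 1 probe set, whose name marks it as shared by similar transcripts (ending in _s_at). Its log2 values were 11.04, 11.03 and 11.16 in SAHA arrays, against 9.07, 9.10 and 8.95 in DMSO arrays. It rose by 2.04 ± 0.07 on the log2 scale, or 4.10-fold, and 1.24% of all genes had a larger value. All SAHA arrays lay about 2 log2 units above all DMSO arrays.

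ZFP36L1, which in the same way destabilizes AU-rich mRNAs, fell by a small amount. Its brightest probe set was at 10.96, 10.99 and 11.00 in SAHA arrays, against 11.40, 11.39 and 11.27 in DMSO arrays, a fall by 0.37 ± 0.06 on the log2 scale. Its 6 probe sets gave log2 fold changes between -0.88 and -0.14. All were below 0, and 3 of them were called. The largest fall, -0.88 ± 0.15, came from the dimmest of the 6, at 4.93, 4.50 and 4.38 in SAHA arrays and 5.67, 5.28 and 5.48 in DMSO arrays. The groups overlapped in 1 of the 6, which gave -0.14 ± 0.08. The gene's call was lost with centring on poly-A spike-ins and with the ACTB difference described below as a covariate. It was also lost without _x_at and _s_at probe sets and by limma's treat at 1.2-fold.

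ZFP36L2, the third paralog, known for its part in lymphocyte and oocyte development in mice, fell in all 4 of its probe sets. The brightest was at 9.02, 9.003 and 9.03 in SAHA arrays, against 9.90, 9.77 and 9.74 in DMSO arrays, a fall by 0.79 ± 0.07. The other 3 gave -0.79, -0.73 and -0.48. The groups did not overlap in any of the 4, and the dimmest of them gave the smallest difference.

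Of the BTG proteins, BTG1, a deadenylation cofactor often mutated in B-cell lymphoma, rose in both of its bright probe sets. Its log2 values were 10.61, 10.60 and 10.58 in SAHA arrays, against 9.71, 9.65 and 9.66 in DMSO arrays. The log2 fold change was 0.92 ± 0.06 in that probe set and 0.92 ± 0.06 in the next, and both are of the kind shared by similar transcripts. The only probe set unique to BTG1 was at 3.15, 3.10 and 3.24 in SAHA arrays and at 3.01, 3.07 and 3.25 in DMSO arrays, near the median of 3.25 over the array's 23 background control probe sets. It gave 0.06 ± 0.08 and was not called. The rise therefore rests on shared probe sets.

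BTG3, a paralog that also restrains the cell cycle, moved the other way. Its 1 probe set was at 10.46, 10.32 and 10.35 in SAHA arrays, against 11.37, 11.39 and 11.39 in DMSO arrays, a fall by 1.01 ± 0.06. All SAHA arrays lay about 1 log2 unit below all DMSO arrays.

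TOB1, which links CCR4-NOT to the cytoplasmic poly(A) binding protein, rose in both of its probe sets, which are of the _s_at kind shared by similar transcripts, so no unique probe set measured it. The brighter one was at 10.19, 10.37 and 10.34 in SAHA arrays, against 9.24, 8.94 and 8.84 in DMSO arrays, with a log2 fold change of 1.29 ± 0.11, or 2.45-fold. The other was at 8.90, 8.79 and 8.79 in SAHA arrays, against 7.56, 7.51 and 7.58 in DMSO arrays, with 1.28 ± 0.06. DMSO replicate 1 was the highest of its group in the brighter probe set, and without it the log2 fold change was 1.41. TOB2, its closest paralog, fell. Its 1 probe set was at 6.09, 6.22 and 5.86 in SAHA arrays, against 6.68, 6.76 and 6.79 in DMSO arrays, a fall by 0.69 ± 0.10.

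The TENT5 poly(A) polymerases both rose. TENT5A, which is needed for normal bone formation, was called higher in 5 of its 6 probe sets. The brightest was at 7.96, 7.79 and 7.73 in SAHA arrays, against 6.77, 6.70 and 6.70 in DMSO arrays, with a log2 fold change of 1.10 ± 0.07, or 2.15-fold. The other 4 that were called gave 0.58 to 1.04. The sixth lay near the background controls, at 3.13, 3.14 and 3.18 in SAHA arrays and 3.34, 3.11 and 3.20 in DMSO arrays, and gave -0.06 ± 0.07.

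TENT5C was called higher in all 3 of its probe sets, by unequal amounts. The brightest was at 7.57, 8.02 and 7.99 in SAHA arrays, against 3.95, 3.78 and 4.09 in DMSO arrays, with a log2 fold change of 3.92 ± 0.13. The next was at 6.999, 6.74 and 7.17 in SAHA arrays, against 3.56, 4.37 and 3.94 in DMSO arrays, with 3.01 ± 0.20, or 8.06-fold. The third was at 5.43, 5.42 and 5.75 in SAHA arrays, against 4.53, 4.68 and 4.50 in DMSO arrays, with 0.97 ± 0.10, or 1.95-fold. In each of the 3 the groups were far apart relative to their spread. In DMSO arrays the brighter 2 averaged 3.94 and 3.96, close to the background controls' median of 3.25. Those controls ranged widely, from 2.49 to 10.7.

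**Figure D2:**
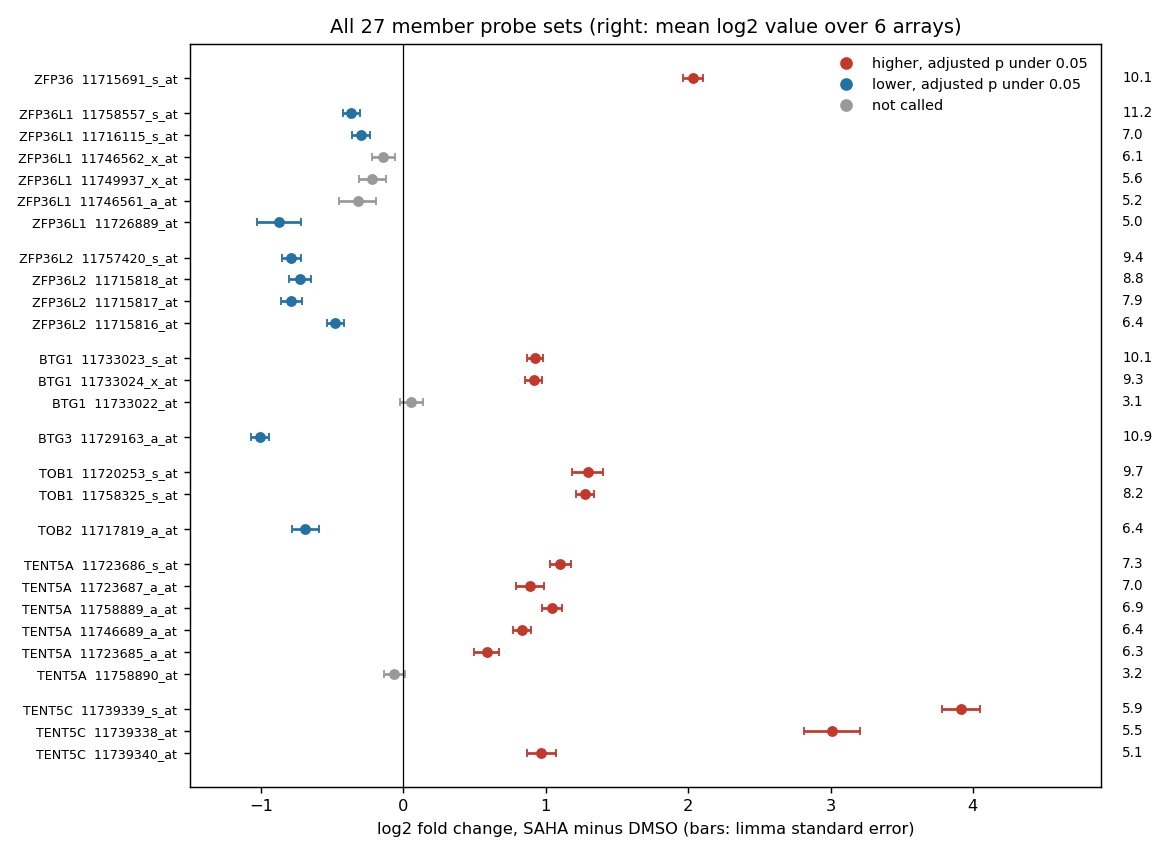
Log2 fold change (horizontal axis, SAHA minus DMSO) of each of the 27 member probe sets with limma's standard error, grouped by gene and ordered by brightness, with the mean log2 value over 6 arrays at the right. Red marks probe sets called higher, blue lower and grey not called. The 2 grey points of BTG1 and TENT5A lie at mean log2 values near 3, and the 3 probe sets of TENT5C run from 0.97 to 3.92.

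Ordered by log2 fold change, the genes ran TENT5C, ZFP36, TOB1, TENT5A, BTG1, ZFP36L1, TOB2, ZFP36L2 and BTG3. Neighbours in this order whose gap was under 2 combined standard errors were TOB1 and TENT5A (gap 0.19, combined standard error 0.13), TENT5A and BTG1 (0.18 and 0.09) and TOB2 and ZFP36L2 (0.10 and 0.12). Other neighbours lay further apart. The place of TENT5C above ZFP36 depends on the probe set, since its dimmest one gave 0.97 and the mean of all 3 gave 2.63, against 2.04 for ZFP36. The 5 genes whose 6 log2 values, each minus the gene's DMSO mean, lay nearest to those of TENT5C by Euclidean distance over the 6 arrays were ID2 (distance 0.48), NEDD9 (0.50), TSPAN13 (0.50), MAP2 (0.55) and SCG2 (0.57). Their log2 fold changes were 4.13, 3.90, 3.80, 3.80 and 3.85. With 6 arrays in 2 groups, this distance is mostly a likeness in the size of the difference.

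The arrays of each group were close to each other, with Pearson's r across probe sets of 0.997 to 0.998 within groups and 0.969 to 0.970 between groups. The mesenchymal markers VIM, CD44, FN1, AXL and CAV1 had mean log2 values between 10.31 and 14.02 in SAHA arrays and between 9.64 and 13.96 in DMSO arrays. By limma over all genes FN1 was higher (0.67), CD44 (-0.57), AXL (-0.38) and CAV1 (-0.71) were lower and VIM was not called. The 6 luminal or epithelial markers lay between 3.38 and 7.74 in SAHA arrays and between 3.28 and 8.67 in DMSO arrays. Of these ERBB3 was higher (2.85), GATA3 (-1.23) and EPCAM (-0.93) were lower, and ESR1, PGR and CDH1 were not called. The part of these marker changes in the members' differences was not tested. The 5 measured markers of blood, endothelial and liver cells lay between 3.24 and 5.06 in SAHA arrays and between 3.33 and 5.02 in DMSO arrays, and CD3E alone among them was called, at -0.25. The 3' minus 5' difference of the ACTB control, a measure of RNA integrity and amplification, was 0.61 ± 0.06 in SAHA and 0.89 ± 0.16 in DMSO arrays (SD, n = 3). An exact permutation test, two-sided, gave p = 0.1, which is the lowest that 3 arrays against 3 can reach, or 0.167 adjusted over 5 control measures. As a covariate it left the calls of 8 of the 9 member genes in place, all but that of ZFP36L1. The ACTB difference itself did not overlap between the groups (0.54 to 0.66 in SAHA and 0.73 to 1.05 in DMSO arrays). That fit therefore cannot tell its part well from that of SAHA. The same difference in the GAPDH control went the other way. It was 0.06 ± 0.02 in SAHA and 0.03 ± 0.02 in DMSO arrays (SD, n = 3, exact permutation p = 0.1), and its groups did not overlap either. The median of 189 ribosomal protein probe sets was 12.82 ± 0.01 in SAHA and 13.01 ± 0.02 in DMSO arrays (exact permutation p = 0.1). Centring on them moves the median log2 fold change of all genes to 0.18, and centring on poly-A spike-ins to 0.14, while it was -0.01 in the deposited values. All 9 member genes kept their direction under both. The balance over all genes did not stay level under these centrings. As deposited, 4457 were higher and 4307 lower. Centred on ribosomal protein probe sets the counts were 7864 and 2952, and centred on poly-A spike-ins 5196 and 2550. The poly-A spike-in median was 6.02 ± 0.12 in SAHA and 6.16 ± 0.10 in DMSO arrays (SD, exact permutation p = 0.3). Its ranges overlapped, so the shift on that scale cannot be told from spread among arrays. Centred on hybridization spike-ins, the median log2 fold change of all genes was -0.02, and about as many genes were higher as lower.

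The machinery these regulators act through was described by 6 lists of 129 genes, of which 123 were measured, with 1 probe set a gene and limma's test over all 18132 genes. Of these genes 32 were higher, 58 lower and 33 not called, with a median log2 fold change of -0.13. Over all genes 24.6% were higher, 23.8% lower and 48.3% called either way, with a median of -0.01. Of the listed genes 73.2% were called. Each list is given by its counts and median only.

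**Figure D3:**
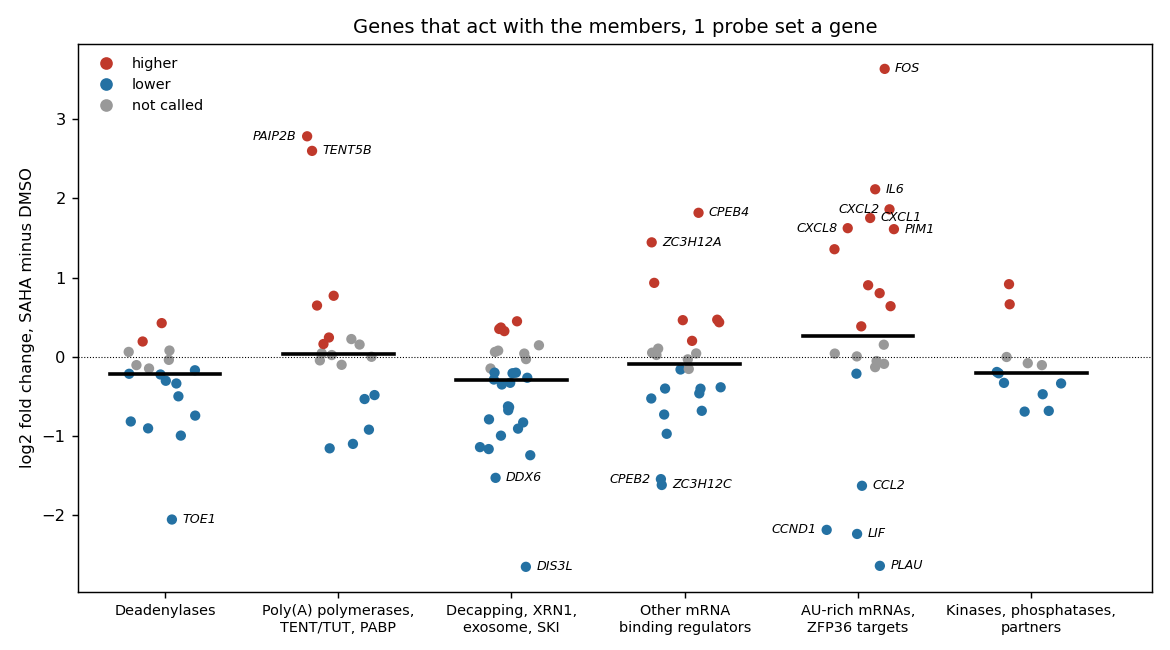
Log2 fold change (vertical axis, SAHA minus DMSO) of the 123 measured genes of the 6 lists, 1 point per gene, with the list's median as a bar. Red marks genes called higher, blue lower and grey not called, and genes beyond 1.4 on the axis in either direction are named. Deadenylases and the decapping and exosome list lie mostly below 0, and the reported ZFP36 targets are spread most widely, from -2.65 to 3.64.

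Genes of the deadenylase list were mostly lower. The list joins CCR4-NOT, which BTG, TOB and ZFP36 proteins recruit, with other deadenylases such as TOE1. Of 18 genes, 11 fell and 2 rose, with a median of -0.22. The fall of TOE1, a deadenylase of Cajal bodies that trims small nuclear RNAs, was the largest in the list. It was at 7.52, 7.26 and 7.24 in SAHA arrays, against 9.38, 9.42 and 9.40 in DMSO arrays (log2 fold change -2.06 ± 0.08, limma's adjusted p = 8.71e-07). CNOT2, a scaffold subunit of CCR4-NOT, was at -0.999 ± 0.070, and PAN3, the adaptor of the PAN2 nuclease, at -0.91 ± 0.06, though the 2 dimmer probe sets of PAN3 gave -0.25 and -0.19 and were not called. The CCR4-NOT partner TNKS1BP1 rose by 0.42 ± 0.08. CNOT8, a nuclease bound by BTG and TOB proteins, rose by 0.19 ± 0.06 (limma's adjusted p = 0.0263), a call lost in 10 alternatives, and of its other 3 probe sets those at 0.07 and 0.09 were not called and 1 at 0.20 was. The paralogous nuclease CNOT7 was at -0.11 ± 0.05 (limma's adjusted p = 0.132), and the scaffold CNOT1, which ZFP36 binds, at -0.04 ± 0.06 (limma's adjusted p = 0.609), both named after their values were seen. Centred on ribosomal protein probe sets, 4 deadenylase genes were higher and 6 lower, and with the ACTB difference as a covariate 0 and 7.

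Poly(A) polymerases, other terminal nucleotidyltransferases and poly(A) binding proteins moved both ways. Of 18 genes, 6 rose and 5 fell, with a median of 0.03. TENT5B, the paralog of TENT5A and TENT5C, was at 9.81, 9.77 and 9.64 in SAHA arrays, against 6.998, 7.31 and 7.10 in DMSO arrays (2.60 ± 0.09, limma's adjusted p = 5.23e-07), and its other probe set gave 1.77 ± 0.14. TENT5D, the remaining paralog, was at 3.26 ± 0.07 in SAHA and 3.36 ± 0.10 in DMSO arrays (SD, n = 3), near the background controls, and was not called. Of the 4 TENT5 genes measured, 3 were called higher, against 24.6% of all genes. TENT5A and TENT5C were proposed with this comparison known, so nothing is read from that count. PAIP2B, an inhibitor of the cytoplasmic poly(A) binding protein, was at 8.55, 8.52 and 8.43 in SAHA arrays, against 5.51, 5.89 and 5.74 in DMSO arrays, and rose by 2.79 ± 0.10. TENT4B, which adds tails to RNAs bound for the exosome, rose by 0.77 ± 0.06, with its other probe sets at 0.79 and, not called, -0.12. The mitochondrial polymerase MTPAP was at -1.16 ± 0.08, TENT4A at -1.10 ± 0.06 and the nuclear poly(A) binding protein PABPN1 at -0.92 ± 0.08. Centred on ribosomal protein probe sets, 11 were higher and 5 lower.

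Genes of decapping and of the 5' and 3' exonucleases were mostly lower. Of 29 genes, 19 fell and 4 rose, with a median of -0.29. DIS3L, the nuclease of the cytoplasmic exosome, was at 7.08, 6.94 and 6.97 in SAHA arrays, against 9.63, 9.68 and 9.67 in DMSO arrays (-2.66 ± 0.06, limma's adjusted p = 1.41e-07). DDX6, a helicase that couples CCR4-NOT to decapping, was at -1.53 ± 0.06, and EXOSC10, the nuclear exosome nuclease, at -1.25 ± 0.06. The rises were small: SKIC8, of the SKI complex that feeds the exosome, by 0.45 ± 0.055, the decapping enzyme DCP2 by 0.37 ± 0.06 and SKIC3 by 0.35 ± 0.11. The call of SKIC3 was lost in 5 alternatives, and the other, dimmer probe set of SKIC8 gave 0.27 ± 0.10 and was not called. Of the other 4 probe sets of DCP2, at 0.13 to 0.40, 2 were called. Centred on ribosomal protein probe sets, 7 were higher and 12 lower.

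Other mRNA-binding regulators of stability moved both ways, with 11 of 24 lower and 7 higher and a median of -0.10. CPEB4, which controls cytoplasmic polyadenylation, rose by 1.82 ± 0.12. ZC3H12A, the endonuclease regnase-1 that cleaves inflammatory mRNAs, rose by 1.44 ± 0.08 and NANOS1 by 0.93 ± 0.06. Their paralogs did not move as one. ZC3H12C was at -1.62 ± 0.07, with other probe sets at -1.59 and -0.95, while ZC3H12B (0.05) and ZC3H12D (0.10) were not called. CPEB2 was at -1.55 ± 0.08, although its dimmer probe sets gave -0.21 each and were not called. CPEB3 rose by 0.43 ± 0.07, and CPEB1 (-0.16) was not called. These paralogs outside the naming rule were added after their values were seen. SAMD4A, a Smaug homologue that recruits deadenylases, was at -0.98 ± 0.06, and its other 4 probe sets gave -0.55 to -0.18, of which 3 were called. Centred on ribosomal protein probe sets, 11 were higher and 9 lower, and centred on poly-A spike-ins 7 and 7.

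Of 22 measured mRNAs with AU-rich elements that are reported targets of ZFP36 proteins, 11 rose and 5 fell, with a median of 0.27. FOS, a subunit of AP-1, was at 9.71, 9.68 and 9.96 in SAHA arrays, against 6.33, 6.31 and 5.81 in DMSO arrays (3.64 ± 0.15, limma's adjusted p = 9.59e-07), and its other probe sets gave 1.57, 2.11 and 3.07. The cytokine IL6 rose by 2.12 ± 0.06, and by 0.52 ± 0.08 in its dimmer probe set, and the chemokine CXCL2 by 1.86 ± 0.06. PLAU, which encodes urokinase, was at 7.95, 7.76 and 7.91 in SAHA arrays, against 10.52, 10.54 and 10.51 in DMSO arrays (-2.65 ± 0.07, limma's adjusted p = 1.97e-07). The cytokine LIF was at -2.24 ± 0.06, with its other probe sets at -1.39 and -0.41. The cyclin CCND1 was at -2.19 ± 0.06, with others between -2.53 and -2.12. Genes moved both ways across the whole array too, with 24.6% of all genes higher and 23.8% lower. Any link between these mRNAs and the members' differences was not tested. RNA decay itself was not measured.

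Of 12 measured kinases, phosphatase subunits and binding partners of the members, 7 fell and 2 rose, with a median of -0.20. MAPKAPK2, the kinase that phosphorylates ZFP36 and holds back its activity, rose by 0.66 ± 0.06 (limma's adjusted p = 4.82e-05). SQSTM1, an autophagy receptor found with TENT5C, rose by 0.92 ± 0.06, with other probe sets between 0.84 and 2.32. FNDC3A, a membrane protein that binds TENT5C at the endoplasmic reticulum, was at -0.70 ± 0.09. HOXB9, a partner of BTG proteins, was at -0.69 ± 0.16 and SMAD4, of the signalling pathway that TOB1 restrains, at -0.48 ± 0.07. The other 6 probe sets of SMAD4 gave smaller falls, -0.38 to -0.13, of which 4 were called. Centred on ribosomal protein probe sets 2 were higher and 4 lower, and centred on poly-A spike-ins 2 and 3.

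The members' differences were recomputed under the processing alternatives that could be run for each gene, 19 to 21 of them. ZFP36 and TOB1 have no value without _x_at and _s_at probe sets, because all of their probe sets end in _s_at. ZFP36, BTG3 and TOB2 have 1 probe set and so no second brightest, and TENT5C and TOB2 fall under a mean log2 value of 7. TENT5C stayed between 2.63 and 4.10 over 20 alternatives, the low end being the mean of its 3 probe sets. ZFP36 stayed between 1.99 and 2.22, TOB1 between 1.21 and 1.55 and TENT5A between 0.73 and 1.29. BTG1 lay between 0.06 and 1.11, the low end being the unique dim probe set that remains without _x_at and _s_at probe sets. Among the genes that fell, ZFP36L1 lay between -0.41 and -0.18, TOB2 between -0.84 and -0.50, ZFP36L2 between -0.82 and -0.60 and BTG3 between -1.05 and -0.82.

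**Figure D4:**
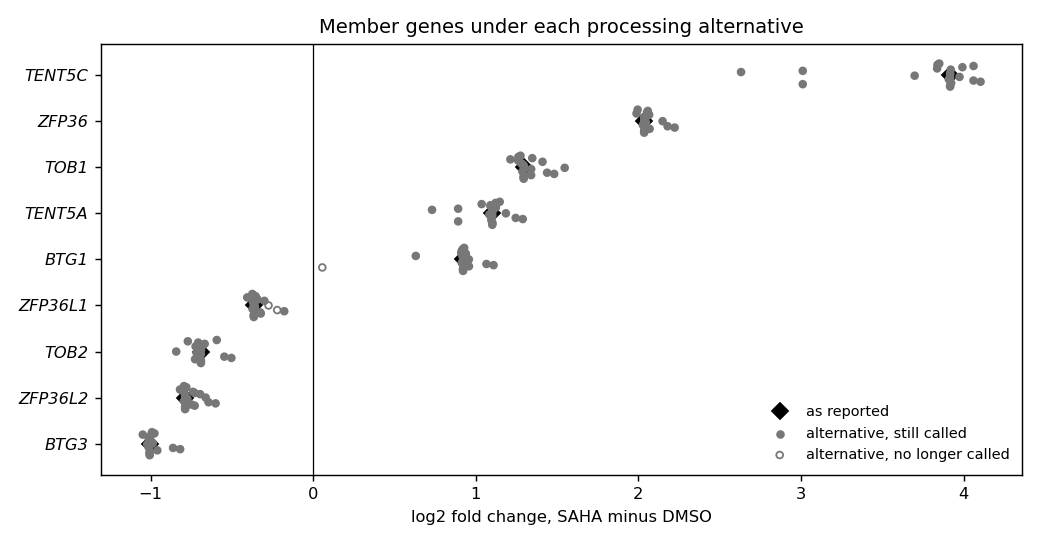
Log2 fold change (horizontal axis, SAHA minus DMSO) of each measured member gene as reported (diamond) and under the 19 to 21 processing alternatives that gave it a value (circles, open where the gene was no longer called). No gene crosses 0, and open circles occur for BTG1, at 0.06, and for ZFP36L1.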

How the data were processed

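RNA from the MDA-MB-231 cells was amplified from its 3' ends and measured on Affymetrix PrimeView arrays, per the labels' protocols. The deposited table gives 1 log2 value for each probe set and array. RMA (background correction, quantile normalization, median polish over probes) is named in the submitters' processing notes. The software version is not given in the sources used here. Quantile normalization makes arrays alike and so hides any shift shared by most mRNAs. Groups and replicate numbers came from the labels.

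From these values SAHA minus DMSO was fitted with limma 3.58.1 in R 4.3.3 (lmFit, eBayes, two-sided, Benjamini-Hochberg, 0.05), over 49293 probe sets and over 18132 genes, each by its brightest probe set among those naming only that gene. Figures used matplotlib 3.10.9. Of 49395 probe sets, 102 were controls, 1832 named several genes and 2473 none. Precision is limited by there being 3 arrays per group. Members and lists were chosen with earlier results of these data known. In each list the text names the 3 largest rises and 3 largest falls among called genes.

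Each fit was repeated with the replicate number as a block, on probe sets with a mean log2 value of at least 5 or 7, without _x_at and _s_at probe sets, after quantile normalization once more, and after centring on ribosomal protein probe sets, poly-A or hybridization spike-ins. Further repeats used trend and robust moderation, array weights, the ACTB difference as a covariate, 0.01 as the threshold, treat from limma at 1.2-fold, the mean or the second brightest of a gene's probe sets, and leaving out each array.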

Additional observations from a re-analysis of the deposited data

How the results depend on the processing

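All 9 member genes kept their direction in every alternative that could be run for them, and 177 of 182 member values stayed called. ZFP36L1 was not called at -0.32 without _x_at and _s_at probe sets, at -0.22 centred on poly-A spike-ins, at -0.27 with the ACTB covariate, or at -0.37 by treat at 1.2-fold. BTG1 was not called at 0.056 without _x_at and _s_at probe sets, since its unique probe set is dim. Of single probe sets, ZFP36L1's 11746562_x_at changed sign to 0.046 and 0.0028 centred on ribosomal proteins and poly-A spike-ins, BTG1's 11733022_at to -0.10 with the ACTB covariate, and TENT5A's 11758890_at to 0.12, 0.080 and 0.043 in these 3 settings. The cause was not tested.

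Fewer probe sets were tested in the next 3 settings, so their counts cannot be set against those of the main fit. The numbers tested are not given here, so no share stands beside these counts, and nothing is read from them. At a mean log2 value of at least 7, 7 member probe sets were higher and 5 lower, and 7265 of all were higher. Without _x_at and _s_at probe sets, 6 member probe sets and 2 member genes were higher, and 7747 of all probe sets were lower. With the second brightest probe set 2 member genes were lower, 2719 of all genes were higher, and among the lists 1 (decapping and exosome) and 4 (other binding proteins) were higher, and 11 (decapping and exosome), 3 (ZFP36 targets) and 3 (partners) lower.

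Scaling and other settings moved the counts of some lists. Only counts that moved well away from the main fit are given here, so no balance can be read from them. Others stayed: centred on poly-A spike-ins, polymerases and poly(A) binding proteins kept 6 higher and 5 lower, and the ZFP36 targets had 11 and 4. Centred on ribosomal proteins, 19654 of all probe sets and 7864 of all genes were higher, as were 4 deadenylases, 11 polymerases and poly(A) binding proteins, 7 decapping and exosome genes and 11 other binding proteins. Lower were 6 deadenylases, 12 decapping and exosome genes and 4 partners. Centred on poly-A spike-ins, 6982 probe sets and 2550 genes were lower, with 6 deadenylases, 12 decapping and exosome genes, 7 other binding proteins and 3 partners. With the ACTB covariate, 0 deadenylases and 2 decapping and exosome genes were higher, and 7 deadenylases, 6 other binding proteins and 3 partners lower. By treat at 1.2-fold, 6434 probe sets, 2759 genes, 0 deadenylases and 1 decapping and exosome gene were higher, and 6728 probe sets, 2531 genes, 6 deadenylases, 12 decapping and exosome genes, 7 other binding proteins and 2 partners lower. At 0.01, 1 deadenylase was higher and 7 lower. The filter at 7 and centring on hybridization spike-ins also left 1 deadenylase higher.

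With the replicate number as a block, 4214 genes were higher and 4077 lower, against 4457 and 4307 without it, and 1 deadenylase was higher. Same-numbered SAHA and DMSO arrays did not deviate together (r of -0.13 to -0.04 for their deviations from the group means), and the labels tie no number to a shared culture, so the arrays were not treated as pairs. Leaving out each array gave 1 to 2 deadenylases higher, and each time 13 member probe sets higher and 9 lower. Probe sets near the background level limit what can be read, as in BTG1's and TENT5A's dimmest.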
